A study of Mus musculus with 8 samples.

Results

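The myostatin and activin pathway was followed in the H3K56ac peaks of MuSCs (muscle stem cells, which lie beside the fibers of skeletal muscle and regenerate them) through 10 genes. They were 4 ligands (Mstn, Gdf11, Inhba and Inhbb), 2 secreted antagonists (Fst and Fstl3) and 4 receptors (Acvr2a, Acvr2b, Acvr1b and Tgfbr1), out of 21755 protein-coding genes on the autosomes and chromosome X. The genes were chosen by name for their role in the pathway, and each was examined with 20 kb on either side, called its window. These windows held 75 of the 105600 merged H3K56ac peaks.

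Myostatin, its close relative GDF11 and the activins (dimers of the inhibin beta chains that Inhba and Inhbb encode) are secreted ligands of the TGF-beta superfamily. They bind the type II receptors ACVR2A and ACVR2B, which then recruit and phosphorylate the type I receptors ALK4 (encoded by Acvr1b) and ALK5 (encoded by Tgfbr1), and the signal reaches the nucleus through SMAD proteins. Follistatin and FSTL3 bind these ligands outside the cell and keep them from the receptors. In skeletal muscle the pathway is known as a brake on muscle mass.

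The study profiled acetylation of lysine 56 of histone H3 (H3K56ac) by ChIP-seq in freshly isolated MuSCs of C57BL/6 mice. Its 8 libraries form 4 groups of 2 replicates each. These are H3K56ac and input DNA of Control mice and H3K56ac and input DNA of Sirt6mKO mice. In Sirt6mKO mice exons of the deacetylase gene Sirt6 flanked by loxP sites are deleted by a constitutively active Cre recombinase expressed from Pax7. The deletion thus takes place in the skeletal muscle lineage. The study also lists a YFP reporter allele in the Sirt6mKO cross. The labels say only Control, which the study describes as wild type in some places. Elsewhere it describes the controls of Sirt6mKO mice as littermates with the loxP sites but without Cre. The labels give no age or sex, and the study states that adult male mice were used. The number of mice behind a library is not given in the sources used here. The data analysed here were 1 merged list of peaks, which holds the position of each interval but no genotype, replicate or strength. The question of how H3K56ac at these genes differs between Control and Sirt6mKO was therefore not analysed here. No value below has a replicate error, library depth cannot be read from the list, and the numbers describe the union of the merged peaks with no test. The study lists read depths per library, and its peak counts differ widely between MuSC libraries. It also reports globally more H3K56ac peaks in Sirt6mKO MuSCs and describes broad peaks after loss of Sirt6. Widths and covered shares below therefore need not be those of Control MuSCs.

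As a check of the cell type, a peak lay within 3 kb of a TSS (transcription start site) in 20 of 20 MuSC marker genes and in 7 of 7 myofiber genes. It did so in 3 of 4 genes of fibro-adipogenic progenitors, 2 of 4 endothelial genes and 0 of 4 blood cell genes, and in 68.3% of all protein-coding genes. MuSC and myofiber genes were thus not told apart by this count. A peak in this list says that a gene was marked in at least some library, and expression was not measured here.

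Every one of the 10 genes had a promoter peak, defined as a peak within 3 kb of any annotated TSS of the gene, compared with the 68.3% above for all protein-coding genes. The reference TSS, that of the principal transcript, lay inside a peak in all 10 genes, against 57.9% of protein-coding genes. The genes thus did not differ by whether the promoter was marked. They differed in how far the marked sequence reached. The widest promoter peak ran from 1787 bp in Inhba to 8269 bp in Acvr2a, with a median of 4370 bp against 3430 bp over the 14868 genes with such a peak. The share of the window inside peaks, called the covered share, ran from 4.98% in Inhba to 42.9% in Fstl3. Its median over the members was 17.6%, and that over all protein-coding genes was 9.66% with quartiles of 1.27% and 20.7%.

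**Figure D1:**
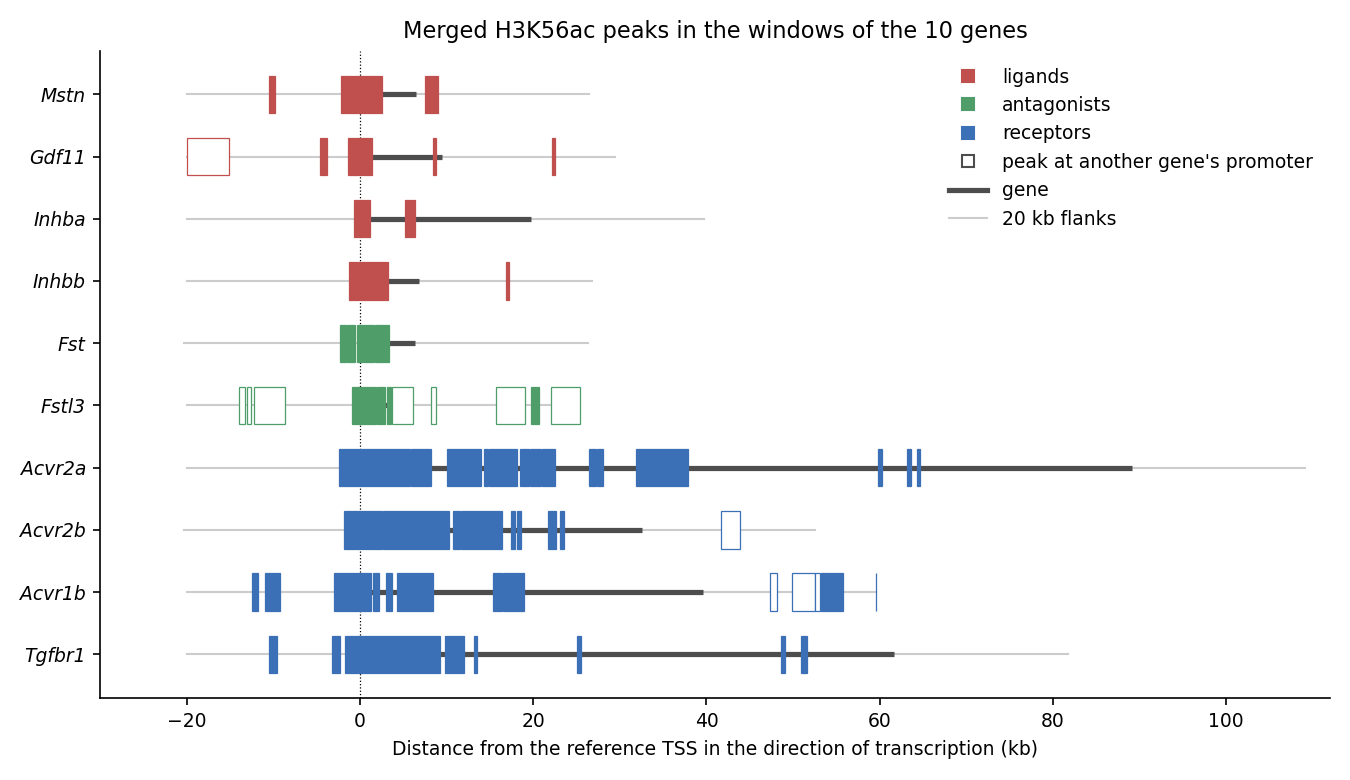
Position of the 75 merged H3K56ac peaks around each gene, with the distance from the reference TSS in kb on the x axis and 1 gene per row. Boxes are peaks (open where they overlap the promoter of another protein-coding gene), dark lines are genes and pale lines the 20 kb flanks. The 4 ligands show isolated boxes at the TSS, whereas the boxes of the 4 receptors continue for at least 8188 bp into the gene.

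Sequences shown here are the 250 bases upstream of the reference TSS of Mstn and Gdf11, the paralogous ligands, of the antagonist gene Fstl3 and of the receptor gene Acvr2a, since all of these bases lay inside a peak and the promoters differ in base composition. They run 5′ to 3′ on the coding strand and were read from the GRCm38 genome (the build also called mm10). Their positions are chr1:53061390-53061639 on the plus strand for Mstn, chr10:128891719-128891968 on the minus strand for Gdf11, chr10:79777022-79777271 on the plus strand for Fstl3 and chr2:48813859-48814108 on the plus strand for Acvr2a. Capitals mark matches on either strand to 6 motifs, which are the E-box CANNTG, the TATA box TATAAA, the SMAD-binding sequence CAGAC, the GC box GGGCGG, the AP-1 site TGANTCA and the CRE TGACGTCA.
Mstn: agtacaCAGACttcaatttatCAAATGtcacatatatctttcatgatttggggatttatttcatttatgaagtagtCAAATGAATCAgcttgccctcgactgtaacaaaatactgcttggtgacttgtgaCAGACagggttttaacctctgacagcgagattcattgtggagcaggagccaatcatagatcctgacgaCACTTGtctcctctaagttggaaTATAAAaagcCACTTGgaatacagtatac
Gdf11: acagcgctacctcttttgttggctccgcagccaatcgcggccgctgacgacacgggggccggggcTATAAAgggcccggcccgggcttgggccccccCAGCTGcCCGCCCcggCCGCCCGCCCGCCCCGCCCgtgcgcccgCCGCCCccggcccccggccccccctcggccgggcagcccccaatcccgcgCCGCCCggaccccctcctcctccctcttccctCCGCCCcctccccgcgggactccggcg
Fstl3: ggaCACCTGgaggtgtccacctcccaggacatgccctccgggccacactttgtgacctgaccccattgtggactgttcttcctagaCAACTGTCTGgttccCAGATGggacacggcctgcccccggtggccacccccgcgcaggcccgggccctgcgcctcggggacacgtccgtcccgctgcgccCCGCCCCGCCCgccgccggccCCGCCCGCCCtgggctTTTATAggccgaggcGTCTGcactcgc
Acvr2a: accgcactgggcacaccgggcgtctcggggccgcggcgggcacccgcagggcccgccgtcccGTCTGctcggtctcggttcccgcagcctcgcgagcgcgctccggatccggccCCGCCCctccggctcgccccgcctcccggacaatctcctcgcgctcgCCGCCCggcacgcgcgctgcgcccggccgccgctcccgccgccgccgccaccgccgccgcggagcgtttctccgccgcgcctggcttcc

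The promoters fell into visibly different kinds. The Mstn bases were 38.4% G+C with 3 CpG dinucleotides, whereas those of Gdf11 were 81.2% G+C with 33 and those of Acvr2a 82.0% G+C with 49. The Fstl3 bases were 71.6% G+C with 22 CpG dinucleotides. The Mstn promoter held 4 E-boxes, the motif that MyoD family factors bind, at -229, -174, -52 and -19 from the TSS, and a TATA box at -29. E-boxes occurred in 63.2% of all promoters of this length and in 4 of the 10 members (Mstn, Gdf11, Fstl3 and Acvr1b). The TATA box occurred in 12.2% of all promoters and in 4 members (Mstn, Gdf11, Inhba and Fstl3), none of them a receptor gene. The match lay at -27 in Fstl3, close to the position in Mstn, but at -185 in Gdf11. GC boxes occurred in 41.8% of all promoters and in 8 members, the exceptions being Mstn and Inhba. The SMAD-binding sequence, which the nuclear effectors of the pathway recognise, was found in Mstn, Fstl3 and Acvr2a and in 40.7% of all promoters. The only AP-1 match among the members was in Mstn, where it overlapped an E-box, and 5.98% of all promoters held that motif. The CRE was found in no member and in 2.06% of all promoters. A match in such short letters is a description and not evidence of binding.

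Mstn (ENSMUSG00000026100.6, chr1:53061640-53068079, plus strand) encodes myostatin, the ligand best known for limiting muscle growth. It had 3 peaks in its window. The peak over the TSS began 2179 bp upstream, ended 2517 bp downstream and contained all of the 1.74 kb intron 1. At 4697 bp its width was at percentile 72.5 of protein-coding genes with the TSS in a peak. A peak of 711 bp lay at -10500 to -9790 bp, and one of 1577 bp lay at 7471 to 9047 bp, beyond the 3′ end of the gene. The window was covered for 15.0% (percentile 64.0) and the gene for 39.1% (percentile 85.5).

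The study designed 2 primer pairs at Mstn, 1 for ChIP of its promoter and enhancer region and 1 for a PCR after digestion with enzymes that differ in their sensitivity to CpG methylation. They are shown because both amplicons can be placed on the peak, the first at chr1:53059995-53060147 and the other at chr1:53061962-53062117. The study reports these assays for muscle tissue of dystrophin-deficient mdx and Sirt6mKO/mdx mice, whereas the peaks here are from MuSCs. Each primer matched the Mstn window once.
Mstn ChIP forward: cctctgaggtatatagcagcatgt
Mstn ChIP reverse: agcagacaccctgaggtgat
Mstn CpG forward: gcctggaaacagctcctaac
Mstn CpG reverse: tttccgtggtagcgtgataa
The ChIP amplicon of 153 bp lay at -1645 to -1493 bp from the TSS, wholly inside the 4697 bp peak and 534 bp from its upstream edge. The CpG amplicon of 156 bp lay at 322 to 477 bp downstream of the TSS and was also wholly inside it.

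Gdf11 (ENSMUSG00000025352.6, chr10:128882295-128891718, minus strand) had 5 peaks in its window. Its promoter peak of 2757 bp was nearly symmetric, with 1373 bp upstream and 1383 bp downstream of the TSS, and was at percentile 34.0 of TSS peak widths. It covered 19.4% of the 4.70 kb intron 1. A peak of 356 bp in exon 3, the last exon, was the only peak of a ligand gene that lay inside the gene outside a promoter. The window was covered for 18.4%, the highest share among the ligands. The largest peak there, of 4938 bp at -20087 to -15150 bp, overlapped the promoters of the neighbouring genes Cd63 and Rdh5, and without it 8.58% of the window was covered.

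Inhba (ENSMUSG00000041324.14, chr13:16011851-16031621, plus strand) encodes the beta A chain of activin A and had the narrowest peak over the TSS and the lowest covered share of the 10 genes. Its TSS peak of 1787 bp reached from -673 to 1113 bp (percentile 14.9). A second peak of 1189 bp at 5187 to 6375 bp covered exon 4 and counted as a promoter peak because it lay within 3 kb of the TSS of Inhba-202, 2624 bp downstream of the reference TSS. That TSS itself was 1511 bp from the nearest peak. The 33395 bp from 6376 bp to the end of the window held no peak. Inhbb (ENSMUSG00000037035.5, chr1:119415465-119422248, minus strand), which encodes the beta B chain, had a TSS peak of 4566 bp. It extended 3266 bp downstream over exon 1 and covered 65.0% of intron 1, and 48.2% of the gene was covered. The only other peak of the Inhbb window was one of 418 bp at 16823 to 17240 bp, downstream of the gene.

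The 4 ligand genes together had 12 peaks, and 0 of the 8 gaps between neighbouring peaks were under 1 kb. Their covered share had a median of 12.8%, from 4.98% to 18.4%, and the flanks alone were covered for a median of 7.73%.

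**Figure D2:**
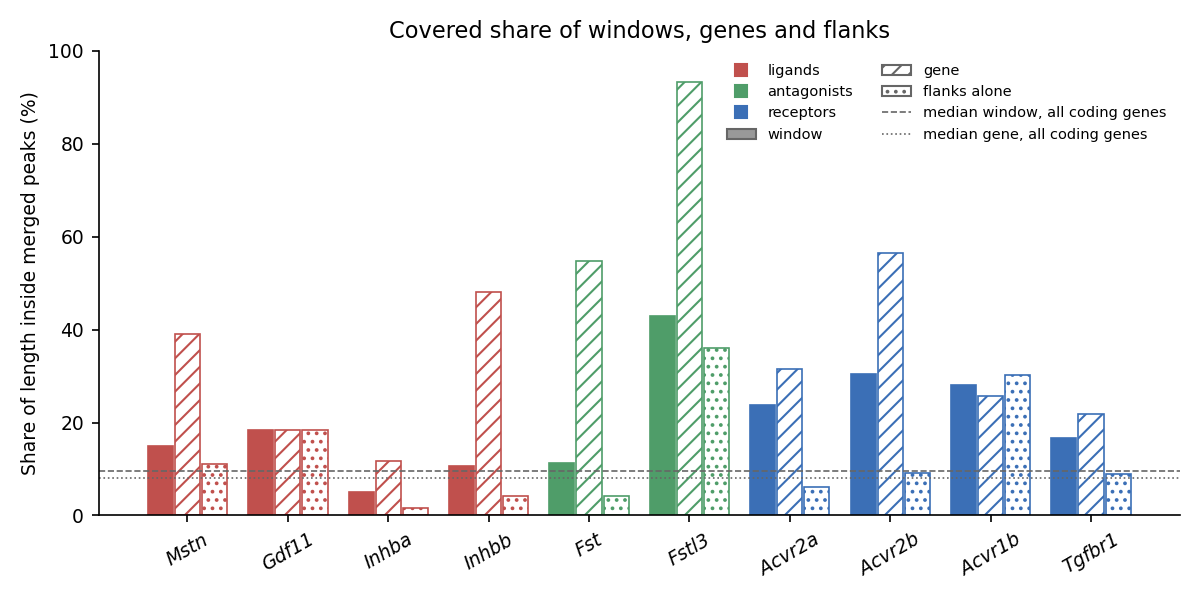
Share of length inside merged peaks in percent for the window, the gene and the flanks alone, with the 10 genes on the x axis and colours for roles. Dashed and dotted lines are the medians of all protein-coding genes for windows (9.66%) and genes (7.99%). Inhba is the only member whose window bar is below the dashed line, and every gene bar is above the dotted line.

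Fst (ENSMUSG00000021765.9, chr13:114452290-114458951, minus strand) encodes follistatin, which binds activins and myostatin. All 4 peaks of its window lay at its promoters, in an uninterrupted series from -2319 to 3330 bp in which no gap exceeded 1 kb. The 4 widths were 692, 919, 2014 and 1662 bp, and the narrowest gap was 45 bp. Joined over these gaps they made a region of 5650 bp, whereas the peak over the reference TSS alone was at percentile 18.5 of such widths. The sequence from 3331 bp to the end of the window, 22966 bp, held no peak. The gene was covered for 54.8% and the window for 11.3%.

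Fstl3 (ENSMUSG00000020325.10, chr10:79777272-79782630, plus strand) encodes a follistatin relative without the heparin-binding property of follistatin. Peaks covered all of its 5 exons and 93.2% of the gene (percentile 97.5), and its joined region of 6995 bp in 4 peaks ran past the 3′ end. Its window held 11 peaks and was covered for 42.9% (percentile 95.6), the highest share of the 10 genes. The window is shared with other genes, and 7 of the 11 peaks overlapped promoters of Rnf126, Prss57 or Palm. With those 7 peaks left out the covered share was 11.4%, but 1 of the 7, of 2434 bp at 3630 to 6063 bp, also covers exons 4 and 5 of Fstl3 itself. With only the other 6 left out the covered share was 16.7%. The median of both antagonist windows was 27.1% with these peaks, 11.3% without the 7 and 14.0% without the 6.

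Acvr2a (ENSMUSG00000052155.5, chr2:48814109-48903269, plus strand) encodes a type II receptor for activins and myostatin, and had the widest TSS peak of the members. That peak of 8269 bp reached from -2456 to 5812 bp (percentile 94.1 of TSS peak widths). A further 10 peaks lay in the 55.5 kb intron 1, the last of them 5923 bp wide at 31901 to 37823 bp, and intron 1 was covered for 47.0%. Small peaks of 451, 488 and 435 bp lay in intron 4 between 59851 and 64710 bp, and the remaining 44450 bp to the end of the window were free of peaks. Although the window also contained TSSs of Orc4, no peak lay within 3 kb of those TSSs. The window was covered for 23.7% and the gene for 31.6%.

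Acvr2b (ENSMUSG00000061393.14, chr9:119402118-119434995, plus strand) encodes the other type II receptor, which binds myostatin with high affinity. Its TSS peak was of ordinary width, 2909 bp (percentile 37.3), but it was the second of 9 peaks separated by gaps under 1 kb. Joined, these made a region of 20453 bp from -1822 to 18630 bp (percentile 96.6 of joined regions), the longest of the 10 genes. The widest of them, 6337 bp at 2600 to 8936 bp, lay wholly in intron 1. Of the first 10 kb downstream of the TSS 98.8% was covered, of the 24.9 kb intron 1 72.7% and of the gene 56.4%. Downstream of the gene the only peak, of 2227 bp, overlapped the promoter of Exog.

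Acvr1b (ENSMUSG00000000532.11, chr15:101174067-101213684, plus strand) encodes the type I receptor ALK4. Its TSS peak of 4173 bp extended mainly upstream, 2972 bp against 1200 bp downstream, unlike the TSS peaks of the other 3 receptor genes. It was followed in intron 1 by peaks of 721, 690 and 4181 bp, which ended at 8391 bp, and by a pair of 998 and 2396 bp at 15334 to 18901 bp. No peak lay between 18902 and 47302 bp, which contains exons 2 to 9. Downstream of the gene 3 peaks overlapped the promoter of Grasp, and without them the covered share of the window was 23.0% in place of 28.0%.

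Tgfbr1 (ENSMUSG00000007613.15, chr4:47353222-47414931, plus strand) encodes ALK5, the type I receptor of TGF-beta that also serves myostatin and GDF11. Its TSS peak of 6935 bp reached 5194 bp downstream (percentile 90.0), and with 3 neighbours it formed a region of 15276 bp that ended at 11995 bp. Smaller peaks of 346 and 520 bp followed in intron 1, and peaks of 460 and 722 bp lay in introns 4 and 6. The TSS of a shorter transcript, at 32994 bp, was 7481 bp from the nearest peak. The window was covered for 16.8% and the gene for 21.8%.

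The 4 receptor genes had 48 of the 75 peaks, and 31 of these lay inside the gene outside promoters, compared with 1 for the ligands and 0 for the antagonists. A peak could count there only if it lay more than 3 kb from every annotated TSS of its gene. The shorter ligand and antagonist genes hold less such sequence, so this count depends on gene length and was not adjusted for it. Of those 31 peaks 26 were in intron 1 and 0 touched an exon. Intron 1 was 19.7 to 55.5 kb long in these genes, whereas the exons of the reference transcript summed to 3175 to 5756 bp. Such counts, and those of gaps below, were not made over all protein-coding genes. Only exon 1 of the reference transcript of each receptor gene met a peak, and between 3.04% and 12.6% of the exon sequence was covered. Of the 44 gaps between neighbouring peaks 27 were under 1 kb, against 9 of 13 for the antagonists. The joined region over the TSS was 10645 to 20453 bp long in the receptors, 5650 and 6995 bp in the antagonists and 1787 to 4697 bp in the ligands, so the ranges of the roles did not overlap. The median over the 12826 protein-coding genes with a joined region over the TSS was 4346 bp, with quartiles of 2920 and 6913 bp.

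**Figure D3:**
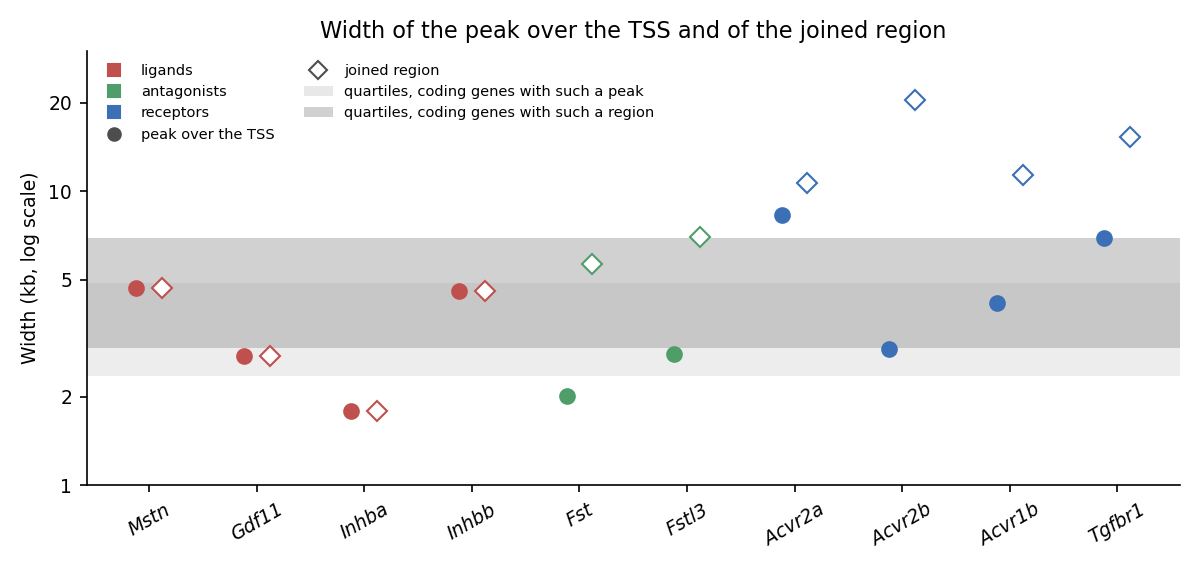
Width in kb, on a log axis, of the merged peak over the reference TSS (circles) and of the region after joining peaks with gaps under 1 kb (diamonds), for each gene. Grey bands run between the quartiles of the protein-coding genes with such a peak (12594) or region (12826). Diamonds of the 4 receptors lie above both bands, between 10645 and 20453 bp, and that of Fstl3 (6995 bp) lies just above them. Circle and diamond coincide in the 4 ligands.

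Within 10 kb downstream of the TSS the covered share was higher in every receptor than in any other member, and ligands and antagonists overlapped. Over the whole gene this order did not hold, with 93.2% in Fstl3 and 21.8% in Tgfbr1. In the first 10 kb after the TSS the covered share was 67.9% to 98.8% in the receptors, 32.9% and 62.7% in the antagonists and 17.4% to 41.0% in the ligands. The median was 14.6% for all protein-coding genes, which include those without a peak at the TSS. For genes with the TSS in a peak, medians by length of intron 1 ran from 23.0% to 40.2%. Gdf11, at 17.4%, was below all of these. In the 10 kb before the TSS the roles overlapped, with 17.9% to 36.7% in the receptors, 20.01% and 22.1% in the antagonists and 6.73% to 23.9% in the ligands.

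**Figure D4:**
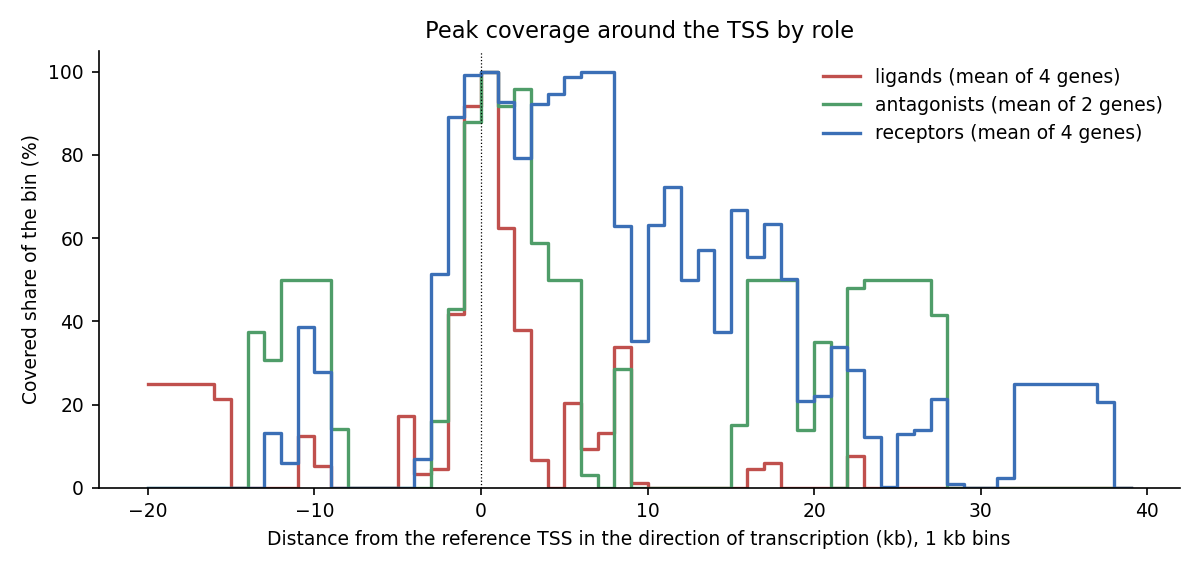
Mean covered share in percent of 1 kb bins from 20 kb upstream to 40 kb downstream of the reference TSS, for 4 ligands, 2 antagonists and 4 receptors. All 3 lines reach 100% in the first bin after the TSS. From 3 to 8 kb the receptor line lies at 92.3% to 100% and the ligand line at 0% to 20.3%.

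The receptor genes were also the longest, at 32.9 to 89.2 kb with introns 1 of 19.7 to 55.5 kb, whereas the ligand genes were 6.44 to 19.8 kb and the antagonist genes 5.36 and 6.66 kb. In a ligand or antagonist gene 10 kb downstream of the TSS mostly takes in the whole gene, and in a receptor gene only exon 1 and part of intron 1. Among the 1431 protein-coding genes with an intron 1 of 20 to 60 kb and the TSS in a peak, the median covered share of the first 10 kb was 40.2%, and Acvr2a, Tgfbr1 and Acvr2b stood at percentiles 80.8, 88.5 and 93.9 of them. Acvr1b stood at percentile 81.7 of the 3248 such genes with an intron 1 of 5 to 20 kb, whose median was 30.9%. The same percentile, among the 4026 such genes with an intron 1 of 1 to 5 kb, was 92.3 for Fstl3, 78.8 for Mstn, 68.9 for Fst, 68.7 for Inhbb and 33.8 for Gdf11, and Inhba was at 49.5 among the 3028 with an intron 1 under 1 kb. Fstl3 was thus above 3 of the 4 receptors and Mstn just below Acvr2a. By this measure the receptors stood at percentiles 80.8 to 93.9 among genes with an intron 1 of like length. That range was not particular to them, since Fstl3 also fell in it. The first 10 kb of Fstl3 runs past the gene, however, and takes in peaks of 2434 and 570 bp that overlap the promoter of Prss57. In Mstn it takes in the 1577 bp peak beyond the 3′ end. Percentiles without these peaks were not computed. For the joined region the percentiles were 78.1 to 91.1 in the receptors, 72.6 and 81.8 in the antagonists and 7.73 to 59.7 in the ligands. The part of gene size in the difference between roles was not tested.

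The covered share of the windows gave a weaker order that depended on the flanks. The medians were 25.8% for receptors, 27.1% for antagonists and 12.8% for ligands, a difference of 13.0 percentage points between receptors and ligands. Receptor values began at 16.8% (Tgfbr1) and ligand values ended at 18.4% (Gdf11), so these groups overlapped. Without peaks over the promoters of other protein-coding genes, Gdf11 fell to 8.58%. The ligand values then ended at 15.0% (Mstn), below the 16.8% of Tgfbr1, which was still the lowest receptor value. Within the genes alone, without flanks, the medians were 28.6% for receptors and 28.8% for ligands, and receptors minus ligands came to -0.134 percentage points. The fixed flanks make up most of the window of a short gene, since the median gene length was 8.10 kb for ligands and 50.7 kb for receptors.

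Base composition at the TSS also differed between the members. The ratio of observed to expected CpG within 500 bp of the TSS was 0.859 to 1.15 in the receptors, all in the upper quartile of protein-coding genes, and was highest in Acvr2a. Gdf11, Inhbb and Fst were in the same quartile with 0.826, 0.793 and 0.7996. Mstn (0.486), Fstl3 (0.494) and Inhba (0.538) were in the quartile just below the median. In the upper quartile 93.1% of all genes had the TSS in a peak, and in the one below the median 43.9% did, beside 7 of 7 and 3 of 3 members. Among genes of its quartile with the TSS in a peak, Mstn was at percentile 80.2 for the width of that peak, Fstl3 at 54.6 and Inhba at 29.6. In the upper quartile Fst was at percentile 9.78 and Acvr2a at 92.7, so members with CpG-rich promoters spanned nearly the whole range of widths.

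**Figure D5:**
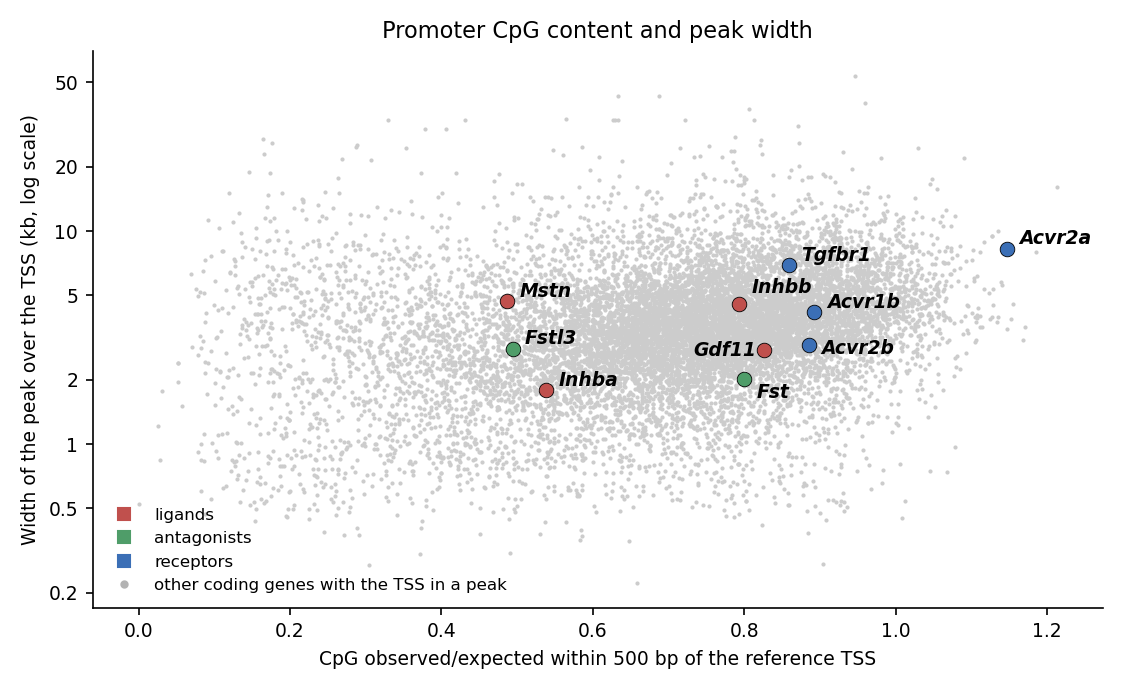
Width in kb (log axis) of the merged peak over the reference TSS against the ratio of observed to expected CpG within 500 bp of it. Each grey point is a protein-coding gene with its TSS in a peak, and the labelled points are the 10 members. Mstn, Fstl3 and Inhba lie near a ratio of 0.5, and the other members between 0.793 and 1.15.

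The 10 genes have 28 distinct annotated TSSs, of which 20 lay in a peak. The 8 outside all lay downstream of the reference TSS, from 2624 bp (Inhba-202) to 76280 bp (Acvr2a-202), and that of Fst-204 missed a peak by 46 bp. No TSS upstream of a reference TSS was without a peak.

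Of 19 other genes of the pathway 15 had a promoter peak, against 68.3% of all protein-coding genes, and the median covered share of their windows was 20.5%, against 9.66% over all. The 4 without were Inhbc and Inhbe, which encode further inhibin beta chains, Tdgf1, which encodes a Nodal co-receptor, and Tll2, which encodes a protease that can release myostatin from its propeptide. The Inhbc window was nevertheless covered for 23.8%, while 0.00% of the gene itself was covered. The highest covered shares were those of the co-receptor gene Tgfbr3 (73.4%), of Smad3, which encodes a SMAD that the receptors phosphorylate (63.5%), and of Smad7, which encodes an inhibitory SMAD (38.2%). The Tgfbr3 and Smad3 windows were thus more covered than that of any of the 10 members.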

How the data were processed

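The study prepared libraries from FACS-sorted MuSCs with an Ion ChIP-Seq kit and sequenced them on an Ion Torrent Proton. The authors trimmed reads with Trim Galore, used bowtie to align them to mm10, kept only uniquely aligned reads and removed duplicates with Picard. Their processing notes also list FastQC, SAMtools and deepTools. Peaks were called with MACS2 and merged by the authors into one list. Requiring unique alignment lowers the chance of a peak in repeated sequence, and merging widens and fuses peaks. The deposited list holds start and end positions and a score column that is 0 in every row. It has 0 columns of values per sample, and which libraries entered the merge is not given in the sources used here.

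Peaks (105600 intervals) were compared with GENCODE vM21 genes on GRCm38, counting positions from 1. An overlap of at least 1 bp counted. The reference TSS was that of the APPRIS principal transcript with the lowest number. Joined regions were peaks less than 1 kb apart. A percentile gives the place among protein-coding genes and is no test. Python 3.11.15, pandas 2.3.3, numpy 2.4.6, pysam 0.24.0 and matplotlib 3.10.9 were used, and the interval functions were tested on simulated data. All members are named, as are other pathway genes without a promoter peak or among the 3 highest in covered share, and neighbours with a promoter peak inside a window. Orc4, without one, and Rdh5, with its TSS outside the window, were named after their values were seen. The members and lists were chosen with earlier results of these data known. Promoter sequences were planned for Fst and Acvr2b, but those bases overlap an exon of a longer transcript, so Fstl3 and Acvr2a were shown instead. The alternatives were a promoter of 1 kb, flanks of 10 kb or none, peaks of at least 500 bp, joined peaks, pooled lengths and windows without peaks at promoters of other genes. Keeping, in that last case, peaks that are also at a promoter of the member itself was chosen after seeing the data.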

Additional observations from a re-analysis of the deposited data

How the results depend on the processing

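With 7 summary values recomputed under other settings (38 values in all), 31 stayed within 1.5 times the value reported. Joining peaks less than 1 kb apart left 39 peaks in the windows. Counting the genes alone, without flanks, left 49 peaks, raised the median covered share to 28.8% in ligands and 74.0% in antagonists, and turned the difference of receptors minus ligands to -0.134 percentage points. Leaving out peaks over the promoters of other protein-coding genes lowered the antagonist median to 11.3%. It was 14.0% when peaks that are also at a promoter of the antagonist gene itself were kept, a setting chosen after seeing the data. The count of 10 members with a promoter peak did not change with a 1 kb promoter, with joined peaks, with peaks of at least 500 bp or with TSSs of protein-coding transcripts alone. No paired analysis was possible because the list has no columns for single libraries, and for the same reason no replicate could be left out. Depth and signal strength are unknown from the list, so a stretch without a peak is not shown to lack H3K56ac.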
